A study of Mus musculus with 19 samples.

Results

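The immunoglobulin Fc receptor genes described here are Fcgr1, Fcgr3 and Fcgr4, which encode activating receptors for immunoglobulin G, Fcer1g, which encodes their shared signalling chain, Fcgr2b, which encodes the inhibitory receptor, and Fcgrt, which encodes the heavy chain of the neonatal receptor FcRn. They were taken by their symbols from the deposited expression table, where they are 6 of 27179 genes listed. All 6 passed a filter on low values that 14186 genes passed (RPKM, reads per kilobase of gene and 1000000 reads, of at least 0.5 in at least 4 mice). The RNA came from spleen cells, freed of red cells by lysis, of 19 FCG mice, bred from C57BL/6J females and from XY males whose Sry gene is deleted from the Y chromosome and carried as a transgene on autosome 3. XXF mice (5) have XX chromosomes and ovaries, and XYF mice (4) have an X and the Y without Sry, and ovaries. XXM mice (5) have XX chromosomes with the Sry transgene and testes, and XYM mice (5) have an X, the Y without Sry, the transgene and testes. Every mouse had been immunized with heat-killed Streptococcus pneumoniae (HKSP) 1 week before the spleen was taken, and no unimmunized mouse was sequenced. The ages of the sequenced mice are not given. Library numbers run group by group, so order of processing and group cannot be told apart.

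Activating Fc receptors bind antibody on particles and immune complexes and, through the activation motif of Fcer1g, start phagocytosis, killing and cytokine release in macrophages, monocytes, neutrophils and natural killer (NK) cells. Fcgr2b carries an inhibitory motif that draws phosphatases such as the product of Inpp5d, and it is the immunoglobulin G Fc receptor of B cells, where it restrains antibody responses. FcRn pairs with beta-2 microglobulin, binds antibody inside the cell and returns it to the surface instead of letting it be degraded.

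The coding bases of the opposing motifs are shown because they are what makes one receptor inhibitory and the shared chain activating. Both were read from the GRCm38 genome in the frames of GENCODE M21 transcripts, on the minus strand, with the tyrosine codons in capitals. The inhibitory motif of Fcgr2b lies at chr1:170961071-170961088 in exon 10 of 10. The activation motif of Fcer1g runs over exons 4 and 5 of 5, within chr1:171229889-171230072, and the intron between them is left out.
Fcgr2b inhibitory motif: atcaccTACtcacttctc
Fcer1g activation motif: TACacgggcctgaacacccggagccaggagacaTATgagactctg

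In RefSeq locations of GRCm38.p6, 4 of the 6 genes lie within a short stretch of chromosome 1. These are Fcgr2b (chr1:170960558-170976071, minus strand), Fcgr4 (chr1:171018926-171029761, plus strand), Fcgr3 (chr1:171051169-171065915, minus strand) and Fcer1g (chr1:171229572-171234349, minus strand). Fcgr1 lies at chr3:96282909-96293969 and Fcgrt at chr7:45092993-45103822, both on the minus strand. Close copies matter here because the reads had 51 cycles at each end. Of the 5689 stretches of 51 bases in Fcgr2b exons, 393 (6.91%) also occur in exons of other genes, 144 genes in all. Of these, 163 (2.87% of the 5689) occur in Fcgr3, and these 163 are 9.41% of the 1733 in Fcgr3. The longest run that these 2 genes share is 129 bases, whereas no other pair of Fcgr genes shares a run longer than 14 bases. In Fcgr1, Fcgr4, Fcer1g and Fcgrt no stretch of 51 bases occurs in another gene. Genes of GENCODE M21 that overlap the members are Gm38204 (antisense to Fcgr2b over 3175 bases), Gm45669 (antisense to Fcgrt over 5331 bases), Mir6546 within Fcgr3 and the small nuclear RNA gene Gm26110 within Fcgr4. RefSeq also places the transfer RNA genes n-TEctc5, n-TGtcc1 and n-TDgtc3 within Fcgr3, and none of these is in the deposited table.

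Libraries XYF F9 and XYM 9 stood apart from the others of their groups in their markers of blood cell types. The summed level of 9 neutrophil markers was 56768 RPKM in XYF F9, where the other XYF mice had 13184, 16843 and 8083. It was 58616 RPKM in XYM 9, where the other XYM mice had 3236, 9474, 4126 and 4011. Monocyte markers (8 genes) summed to 3822 RPKM in XYF F9 and 3673 in XYM 9, and to between 882 and 1895 in the other 17 mice. Both libraries thus held far more RNA of granulocyte and monocyte markers than the rest, and some values below are also given without them.

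Per length, Fcer1g was the most abundant of the receptor transcripts, with a mean of 202.0 RPKM over the 19 mice. Fcgr2b (73.8), Fcgr4 (72.4), Fcgr3 (42.6) and Fcgrt (40.7) lay between, and Fcgr1 was the lowest at 5.10. The place of Fcgr4 depends on the group, since its mean RPKM was 37.3 in XXF, 179.5 in XYF, 19.3 in XXM and 75.0 in XYM mice, and its median over the 19 mice was 37.7, below those of Fcgr3 (39.8) and Fcgrt (39.2). Fcgr2b group means were 53.9, 53.5, 93.1 and 90.8 in the same order. Between its lowest and highest mouse, Fcgr4 spanned 3.52 log2 units, Fcer1g 2.32, Fcgr1 2.11, Fcgr3 1.94, Fcgr2b 1.58 and Fcgrt 1.14. Fcgr4 thus varied most and Fcgrt least.

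The receptors were tested with limma in a fit of all 14186 genes, in which a gene was called at a Benjamini-Hochberg adjusted p under 0.1 and a difference of more than 1.5 times. Between XXF and XYF mice 1 of the 6 was called (Fcgr4), beside 1.38% of all genes tested. Between XXM and XYM mice 1 was called (Fcgr4), beside 2.96%, and over both gonadal sexes 1 (Fcgr4), beside 1.72%. Between XXM and XXF mice 2 were called (Fcgr1 and Fcgr2b), beside 4.22%. Between XYM and XYF mice 4 were called (Fcgr1, Fcgr2b, Fcgr4 and Fcer1g), beside 15.8%. Averaged over XX and XY, 3 were called between males and females (Fcgr1, Fcgr2b and Fcgr4), beside 7.32%. These comparisons share groups, so their values are read side by side and not as separate evidence. Without XYF F9 and XYM 9, each of these 6 comparisons had the same number of receptors called, beside 0.895%, 6.18%, 1.3%, 4.74%, 22.1% and 9.09% of all genes in the same order. The count between XXF and XYF mice became 2, with Fcer1g, without XYF F8, XYM 12 or XYM 9. The count between XXM and XYM mice became 0 without XXM 2, XXM 5 or XYM 13.

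limma called 0 of the 6 for the interaction, the XX against XY difference in females less that in males, beside 0.0846% of all genes. At an unadjusted p under 0.05 the interaction held 1 of the 6, Fcer1g, and 2979 of all genes, and limma-voom on recovered reads also called 0 of the 6. The count became 1, again Fcer1g, without XXF F3, XYF F8 or XYM 9, with array weights, and without both libraries that stood apart. All genes called rose from 12 to 1694 of 14186 without XYM 9, 1910 with array weights and 782 (5.51%) without both libraries.

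**Figure D1:**
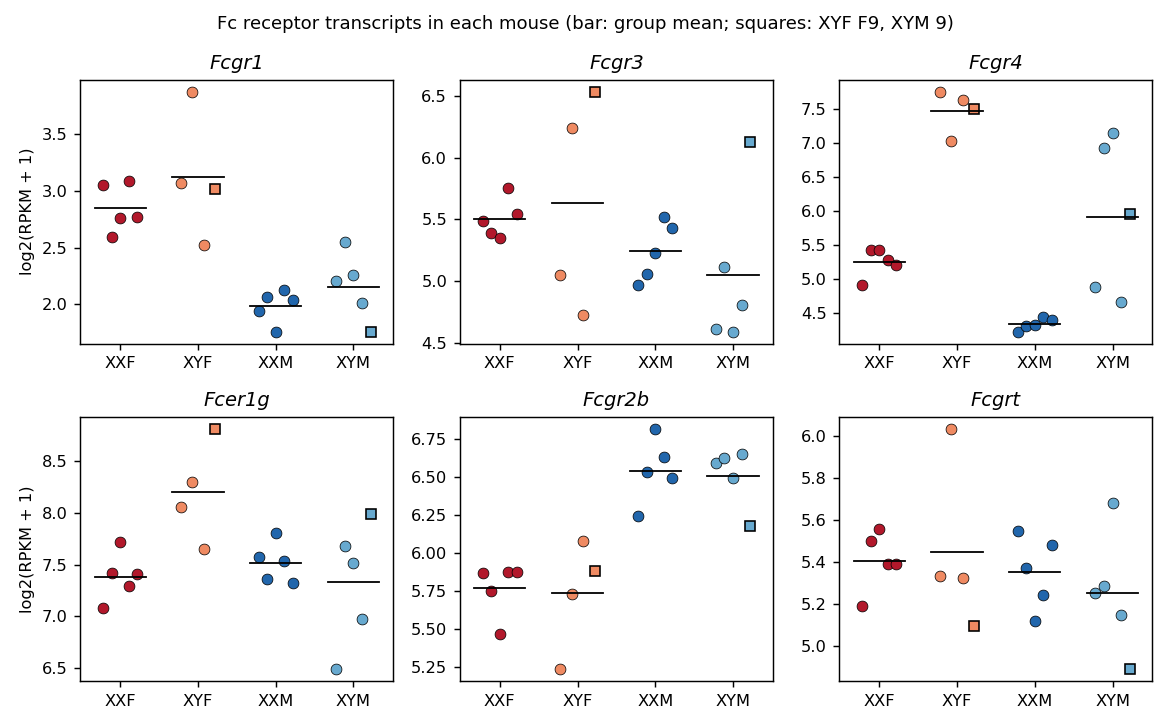
Level of each Fc receptor transcript in each of the 19 mice, in log2(RPKM + 1), by group (5 XXF, 4 XYF, 5 XXM, 5 XYM). Bars are group means and squares are XYF F9 and XYM 9. Fcgr4 group means were 5.25, 7.47, 4.34 and 5.91, and Fcgr2b group means 5.77, 5.74, 6.54 and 6.51, in the order XXF, XYF, XXM, XYM.

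Fcgr4 encodes an activating receptor of myeloid cells that binds immunoglobulin G of the 2a and 2b subclasses. On the deposited scale, log2(RPKM + 1), its level was 4.92, 5.42, 5.43, 5.27 and 5.21 in XXF F1 to F5. In XYF F6 to F9 it was 7.75, 7.02, 7.62 and 7.49. All 4 XYF mice therefore lay well above all 5 XXF mice, with a wide gap between the groups. The XXM mice 2, 5, 6, 7 and 8 had 4.23, 4.31, 4.33, 4.45 and 4.40. The XYM mice 12, 13, 15, 16 and 9 had 4.88, 6.92, 7.15, 4.67 and 5.95. The XYM mice split, with 13 and 15 near the XYF mice, 12 and 16 just above the XXM mice, and 9 in between. Even so, all 5 XYM mice lay above all 5 XXM mice. In RPKM, XYM 13 and 15 had 120.3 and 141 of Fcgr4, where XYM 12 and 16 had 28.5 and 24.4, from 3003, 3413, 565 and 553 reads.

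The Fcgr4 log2 difference was -2.22 between XXF and XYF mice (standard error 0.38, limma Benjamini-Hochberg adjusted p 0.00717), 4.67 times lower in XXF mice in RPKM + 1, in 5 of 5 against 4 of 4. The two-sided exact permutation p was 0.00794, the smallest possible for these group sizes. Exact permutation p here and below are not adjusted for the number of tests. Between XXM and XYM mice the Fcgr4 difference was -1.57 (standard error 0.36, limma Benjamini-Hochberg adjusted p 0.0468, exact permutation p 0.00794, again the smallest possible), with all 5 XXM mice below all 5 XYM mice. The Fcgr4 call in males depended on single mice and on the fit. It was lost without XXM 2 (adjusted p 0.123, difference -1.54), XXM 5 (0.101, -1.56) or XYM 13 (0.137, -1.32), and with the 2 compared groups fitted alone (0.106, -1.57). Among these fits the difference stayed near its size except without XYM 13. With each mouse left out, including fits that kept the call, it ran from -1.88 to -1.26. Over all alternatives for the males the limma Benjamini-Hochberg adjusted p of Fcgr4 ran from 0.00454 to 0.137. In females the Fcgr4 call was kept in all 32 alternatives, with adjusted p from 0.000171 to 0.0361. Averaged over both gonadal sexes the Fcgr4 difference was -1.90 (standard error 0.26, limma Benjamini-Hochberg adjusted p 0.000523, exact permutation p 3.15e-05, the smallest possible), and it was -1.89 without XYF F9 and XYM 9. The interaction of Fcgr4 was -0.65 (standard error 0.52, adjusted p 0.463), so the sizes in females and males were not shown to differ. In whole spleen cells, fewer cells of a type and less RNA per cell cannot be told apart, for Fcgr4 and for every other receptor here.

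Fcgr4 also differed between mice with testes and mice with ovaries. XYM mice were lower than XYF mice by a log2 difference of -1.56 (standard error 0.38, limma Benjamini-Hochberg adjusted p 0.00829, two-sided exact permutation p 0.0397), with 4 of 5 XYM mice below every XYF mouse and XYM 15 above XYF F7. XXM mice lay below XXF mice without overlap (-0.91, standard error 0.36), yet the gene was not called there (limma Benjamini-Hochberg adjusted p 0.155, exact permutation p 0.00794). That adjusted p ran from 0.000275 to 0.258 over the alternatives. Fcgr4 was called between XXM and XXF mice when these groups were fitted alone (0.000275), with array weights (0.0860), without XYM 15 (0.0883) and without XYM 16 (0.0878). Averaged over XX and XY mice, Fcgr4 was lower in males (-1.23, standard error 0.26, limma Benjamini-Hochberg adjusted p 0.00276), while the XYM mice overlapped the XXF mice. The order of the Fcgr4 group means was thus XYF (7.47, standard deviation 0.32), XYM (5.91, 1.14), XXF (5.25, 0.21) and XXM (4.34, 0.08). XYM and XXF, next to each other in that order, did not differ beyond the spread of the XYM mice.

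Fcgr1 encodes the high-affinity activating receptor, carried by macrophages, monocytes and dendritic cells. Its level in log2(RPKM + 1) was 3.05, 2.59, 2.76, 3.09 and 2.77 in XXF F1 to F5. It was 3.07, 3.87, 2.52 and 3.02 in XYF F6 to F9. The females thus ran together whatever their sex chromosomes, with XYF F7 alone far above the rest. The XXM mice 2, 5, 6, 7 and 8 had 1.94, 2.07, 1.76, 2.13 and 2.04. The XYM mice 12, 13, 15, 16 and 9 had 2.21, 2.55, 2.26, 2.01 and 1.76. Every male lay below every female except XYM 13, which was just above XYF F8. The difference between XXM and XXF mice was -0.86 (standard error 0.19, limma Benjamini-Hochberg adjusted p 0.0103), with 5 of 5 below 5 of 5 and an exact permutation p of 0.00794, the smallest possible. Between XYM and XYF mice it was -0.96 (standard error 0.21, limma Benjamini-Hochberg adjusted p 0.00473, two-sided exact permutation p 0.0159), with 4 of 5 XYM mice below every XYF mouse. Averaged over XX and XY the Fcgr1 difference was -0.91 (standard error 0.14, limma Benjamini-Hochberg adjusted p 0.000268), 1.88 times lower in males in RPKM + 1, where mean RPKM was 6.28 in XXF, 8.21 in XYF, 2.98 in XXM and 3.53 in XYM mice. Every male and no female carried the Sry transgene on autosome 3, and Fcgr1 lies on chromosome 3. Testes, the transgene and the stretch of chromosome around it therefore cannot be told apart in the comparisons of males with females. Between XX and XY mice Fcgr1 differed by -0.27 in females and -0.17 in males and was not called.

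The order of the Fcgr1 group means was XYF (3.12, standard deviation 0.56), XXF (2.85, 0.21), XYM (2.16, 0.29) and XXM (1.99, 0.14). Within the females and within the males, these means did not differ beyond the spread of the mice. Fcgr1 rested on few reads, from 89 in XXM 2 to 606 in XYF F7.

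Fcgr3 encodes the activating receptor that NK cells, macrophages and neutrophils carry. In log2(RPKM + 1) it was 5.49, 5.39, 5.35, 5.75 and 5.54 in XXF F1 to F5, and the XXM mice were close to these at 4.97, 5.06, 5.23, 5.52 and 5.43. In the XYF mice F6 to F9 it was 5.05, 6.24, 4.73 and 6.53. In the XYM mice 12, 13, 15, 16 and 9 it was 4.61, 5.12, 4.59, 4.81 and 6.13. The highest Fcgr3 values of the XY groups were thus in XYF F9 and XYM 9, the libraries with the most neutrophil RNA, with XYF F7 between them. Fcgr3 was called in none of the 7 comparisons by limma, where its smallest unadjusted p was 0.0777 (males against females, log2 difference -0.42, adjusted p 0.164). Between XYM and XYF mice Fcgr3 differed by -0.59 (limma Benjamini-Hochberg adjusted p 0.182, from 0.0310 to 0.506 over the alternatives, lower in 4 of 5 XYM mice than the XYF mean). It was called there without XYF F8 (-0.89, adjusted p 0.0456) or without XYM 9 (-0.85, 0.0310), and not when XYF F9 and XYM 9 were both left out (-0.56, 0.0981). Leaving out both moved the Fcgr3 difference from 0.19 to 0.46 between XXM and XYM mice and from 0.03 to 0.31 over both gonadal sexes, where it was still not called.

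Fcer1g encodes the gamma chain through which the activating receptors signal, and which several lectin receptors and platelet and NK receptors also use. In log2(RPKM + 1) it was 7.08, 7.42, 7.72, 7.29 and 7.41 in XXF F1 to F5. In XYF F6 to F9 it was 8.05, 8.30, 7.66 and 8.81, so that 4 of 5 XXF mice lay below every XYF mouse. The XXM mice 2, 5, 6, 7 and 8 had 7.57, 7.36, 7.80, 7.53 and 7.32. The XYM mice 12, 13, 15, 16 and 9 had 6.49, 7.68, 7.51, 6.97 and 7.99. The other groups therefore overlapped, and only the XYF mice stood higher, with XYF F8 inside the range of the others. The difference between XYM and XYF mice was -0.88 (standard error 0.26, limma Benjamini-Hochberg adjusted p 0.0191, two-sided exact permutation p 0.0476), with 3 of 5 XYM mice below every XYF mouse. Without XYF F9 and XYM 9 that Fcer1g difference was -0.84 (adjusted p 0.0154), and over all alternatives the adjusted p ran from 0.00472 to 0.0895.

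Between XXF and XYF mice the Fcer1g difference was -0.82 (standard error 0.26), which limma did not call (Benjamini-Hochberg adjusted p 0.130, two-sided exact permutation p 0.0159). Over the alternatives that adjusted p ran from 0.0626 to 0.455. Fcer1g was called between XXF and XYF mice without XYF F8 (-1.01, 0.0626), without XYM 12 (0.0826) or without XYM 9 (0.0710). It was not called without both XYF F9 and XYM 9 (-0.62, standard error 0.23, adjusted p 0.275), so the difference in females was not settled. In males the XX against XY difference of Fcer1g was 0.19, or 0.35 without XYF F9 and XYM 9 and -0.02 without XYM 12, and it was not called. Its interaction was -1.01 (standard error 0.35, adjusted p 0.148, from 0.0557 to 0.265 over the alternatives, two-sided exact permutation p 0.0211). That interaction was called without XYM 9 (-1.18, 0.0557) and without both XYF F9 and XYM 9 (-0.97, 0.0968).

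Fcgr2b encodes the only inhibitory receptor of the set. Its level in log2(RPKM + 1) was 5.87, 5.75, 5.47, 5.88 and 5.88 in XXF F1 to F5. In XYF F6 to F9 it was 5.24, 5.73, 6.08 and 5.89. The 9 females overlapped fully across sex chromosomes. The XXM mice 2, 5, 6, 7 and 8 had 6.24, 6.53, 6.82, 6.63 and 6.50. The XYM mice 12, 13, 15, 16 and 9 had 6.59, 6.63, 6.50, 6.66 and 6.18. All 10 males lay above all 9 females, and the lowest male, XYM 9, was close to the highest female, XYF F8. The Fcgr2b difference was 0.77 between XXM and XXF mice (standard error 0.15, limma Benjamini-Hochberg adjusted p 0.00302) and 0.77 between XYM and XYF mice (standard error 0.15, adjusted p 0.00355). In each the two-sided exact permutation p was 0.00794, the smallest possible. Averaged over XX and XY it was 0.77 (standard error 0.11, limma Benjamini-Hochberg adjusted p 0.000102), 1.71 times higher in males in RPKM + 1. Both Fcgr2b differences kept their call in every alternative, and between XYM and XYF mice the difference was 0.91 without XYF F9 and XYM 9.

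Between XX and XY mice Fcgr2b differed by 0.03 in females and 0.03 in males, and these small values changed sign under median ratio rescaling in females and quantile normalization in males. The order of the Fcgr2b group means was XXM (6.54, standard deviation 0.21), XYM (6.51, 0.20), XXF (5.77, 0.18) and XYF (5.74, 0.36), with no difference beyond the spread within the males or within the females. The inhibitory receptor thus ran opposite to Fcgr1 and Fcgr4 between males and females.

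Fcgrt, the salvage receptor of antibody, was the steadiest of the 6. Its group means in log2(RPKM + 1) were 5.41 in XXF, 5.44 in XYF, 5.35 in XXM and 5.25 in XYM mice, with standard deviations of 0.14, 0.41, 0.17 and 0.29. The 4 groups overlapped, from 4.89 in XYM 9 to 6.03 in XYF F7. limma called Fcgrt in none of the 7 comparisons, and its largest difference in size was -0.19 (XYM against XYF, unadjusted p 0.263).

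**Figure D2:**
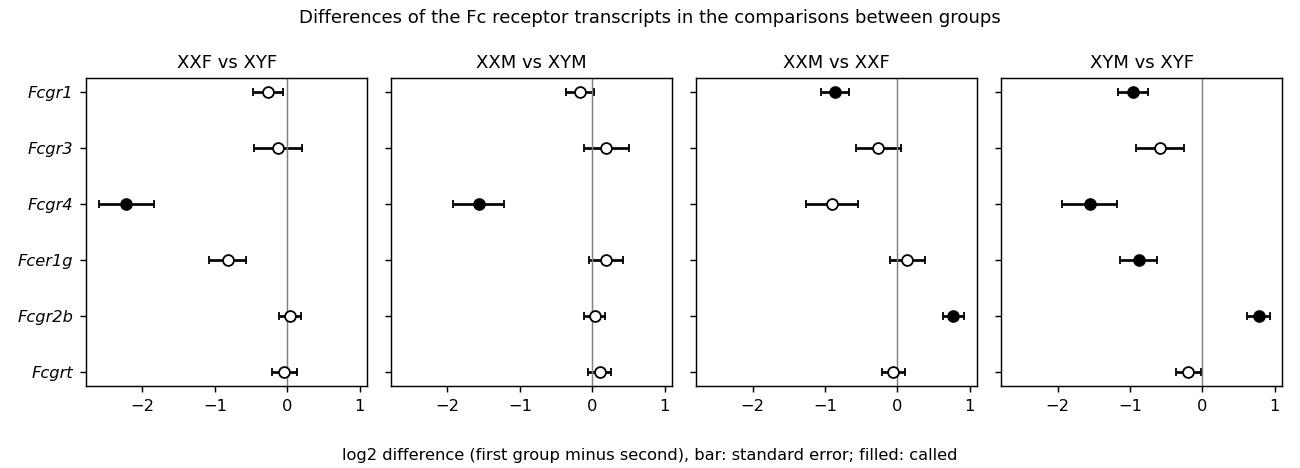
Log2 differences of the 6 Fc receptor transcripts in the comparisons between groups, first group minus second, with standard errors. Filled points were called by limma. Fcgr4 was -2.22 in XXF vs XYF and -1.57 in XXM vs XYM, Fcgr1 was -0.86 and Fcgr2b 0.77 in XXM vs XXF, and Fcgr1 was -0.96, Fcgr4 -1.56, Fcer1g -0.88 and Fcgr2b 0.77 in XYM vs XYF. Comparisons that share a group are not independent.

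Activating and inhibitory transcripts were set against each other as a ratio of RPKM values in each mouse, as a description without a test. The RNA came from whole spleen cells, so the ratio is not a balance within any cell type. A different mix of cell types and a different ratio within cells cannot be told apart. The sum of Fcgr1, Fcgr3 and Fcgr4 over Fcgr2b was 1.40, 1.66, 2.02, 1.70 and 1.51 in XXF F1 to F5. It was 6.88, 4.16, 3.39 and 4.78 in XYF F6 to F9. Activating transcripts therefore outnumbered inhibitory ones, per length, in all 9 females, and more so in every XYF than in every XXF mouse. The XXM mice 2, 5, 6, 7 and 8 had 0.681, 0.593, 0.519, 0.704 and 0.732. The XYM mice 12, 13, 15, 16 and 9 had 0.581, 1.62, 1.88, 0.546 and 1.85. All XXM mice thus lay below 1, as did XYM 12 and 16, whereas XYM 13, 15 and 9 reached the range of the XXF mice. Group medians were 4.47 in XYF, 1.66 in XXF, 1.62 in XYM and 0.681 in XXM mice. Without XYM 9 the XYM mice still split into 2 above 1 and 2 below.

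The receptors contributed unequally to that ratio. Fcgr4 alone exceeded Fcgr2b in 6 mice, the 4 XYF mice and XYM 13 and 15, with medians of the Fcgr4 ratio of 3.01 in XYF, 0.651 in XXF, 0.855 in XYM and 0.212 in XXM mice. Fcgr3 exceeded Fcgr2b in 2 mice, XYF F7 and F9. The Fcgr1 ratio was small but set the sexes apart, since every female lay above every male, with medians of 0.127 in XXF, 0.156 in XYF, 0.0348 in XXM and 0.0379 in XYM mice. Fcer1g exceeded Fcgr2b in 18 of 19 mice, all but XYM 12 (0.932).

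**Figure D3:**
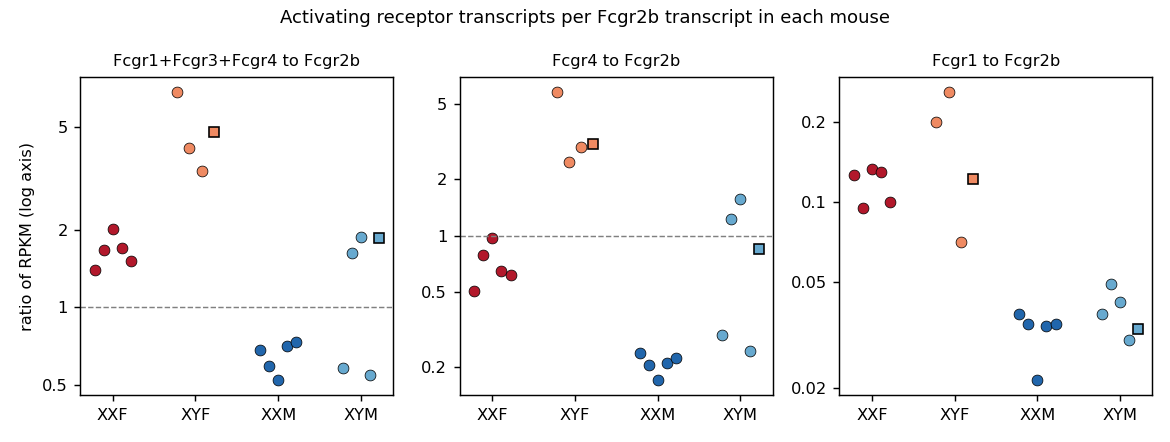
Ratio of activating receptor transcripts to Fcgr2b in each mouse, in RPKM on a log axis, for the sum of Fcgr1, Fcgr3 and Fcgr4, for Fcgr4 and for Fcgr1. Squares are XYF F9 and XYM 9 and the dashed line marks a ratio of 1. Medians of the summed ratio were 1.66 in XXF, 4.47 in XYF, 0.681 in XXM and 1.62 in XYM mice.

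Within groups, the receptors varied together only in part. After each value was centred on its group mean, 15 pairs of receptors were compared over the 19 mice, with two-sided permutation p adjusted by Benjamini-Hochberg over the 15. The centred values were permuted over all 19 mice and not within groups. Spread differed between groups, with Fcer1g standard deviations of 0.23 in XXF, 0.48 in XYF, 0.19 in XXM and 0.60 in XYM mice. These p are therefore approximate and may be too small. Fcgr3 and Fcer1g had a Pearson r of 0.67 (permutation p 0.0017, adjusted p 0.0255), but the Spearman rho was 0.52 (permutation p 0.0249, adjusted p 0.374), and r was 0.44 without the 2 farthest mice. Fcgr1 and Fcgrt followed with an r of 0.57 (adjusted p 0.0897), which was 0.32 without the 2 farthest mice, and Fcgr4 and Fcer1g with an r of 0.51 (adjusted p 0.136). Fcgr2b and Fcgr1 had an r of -0.01 within groups, so their opposite course between males and females was not seen among mice of the same group.

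Of 14 further genes of the Fc receptor family, 12 passed the filter, and Fcrl6 and Fcrls did not. The light chain partner of FcRn, B2m, was by far the most abundant with a mean of 2897 RPKM. The B cell receptors for other antibody classes and the Fc receptor-like genes came next, with Fcmr at 409.9, Fcer2a at 159, Fcrla at 156 and Fcrl1 at 109.7 RPKM. The cytosolic antibody receptor Trim21 (19.2) and Fcrl5 (14.6) were lower, and Fcamr (3.28), the mast cell receptor chains Fcer1a (2.41) and Ms4a2 (1.01), Pigr (0.989) and Fcrlb (0.577) were the lowest, with reads in every mouse. limma called 0 of the 12 between XX and XY mice over both gonadal sexes (4 at an unadjusted p under 0.05, and 0 by limma-voom), where the list's median difference was 0.01 beside 0.03 over all genes. Between XYM and XYF mice 5 of 12 were called, beside 15.8% of all genes, all higher in XYM: Fcamr (1.27), Fcer2a (1.13), Fcmr (0.97), Fcrla (0.77) and Fcrl1 (0.72). The median of that list was 0.28 there, beside 0.02 over all genes. Between males and females these genes were called too, at 0.84, 0.78, 0.72, 0.66 and 0.60 in log2, so 5 of 12 beside 7.32% of all genes. That count was 4 of 12 without XYF F9 and XYM 9, beside 9.09% of all genes. Between XXM and XXF mice, where Fcgr2b was called, limma called 0 of the 12 (6 at an unadjusted p under 0.05, and 1 by limma-voom), with a median of 0.38 beside -0.01 over all genes.

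Downstream of the activation motif, 20 signalling genes were tested. Between XYM and XYF mice 4 were called higher, the kinase Syk (1.12), Cbl (1.09), Plcg2 (0.89) and Btk (0.72), and 2 lower, the adaptor Lat (-1.31) and Tyrobp (-0.67), which encodes an activating chain like Fcer1g, so 6 of 20 beside 15.8% of all genes. Between XXM and XXF mice 2 were called higher, Btk (0.69) and Lat2 (0.62), and 3 lower, Lat (-1.39), Plcg1 (-1.02) and Lcp2 (-0.68), so 5 of 20 beside 4.22%. Between XXM and XYM mice 2 were called lower, Plcg1 (-0.96) and Vav3 (-0.59), beside 2.96%. Averaged over XX and XY, 3 were called higher in males, Syk (0.87), Btk (0.71) and Plcg2 (0.65), and 1 lower, Lat (-1.35), beside 7.32%. Many of these genes serve B and T cell receptors as well as Fc receptors. Between XXF and XYF mice limma called 0 of the 20 (3 at an unadjusted p under 0.05, and 0 by limma-voom).

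On the inhibitory side, 1 of 7 phosphatases and adaptors was called, the lipid phosphatase Inpp5d, higher in XYM than in XYF mice (0.64), a share near the 15.8% of all genes called there. The median of the 7 was 0.34 there, beside 0.02 over all genes. Of 5 tested receptors that also pair with Fcer1g, the NK receptor Ncr1 was called between females, higher in XXF mice (1.46, beside 1.38% of all genes), and over both gonadal sexes (1.10, beside 1.72%). The lectin receptors Clec4n (-1.17) and Clec4d (-1.15) were called lower in XYM than in XYF mice, beside 15.8% of all genes, and at -0.70 and -0.72 between males and females, beside 7.32%. Ncr1 was not called there and had the other sign (0.50 between XYM and XYF mice). Leaving out XYF F9 and XYM 9 gave 1 of the 5 called higher and 2 lower in XYM than in XYF mice, beside 22.1% of all genes. It also gave 1 of 5 called higher in XXM than in XYM mice, beside 6.18%.

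The genes whose course over the 19 mice was most like that of each receptor, by the Pearson r of their levels, are given as a description that says nothing of shared function or control. For Fcgr4 they were F11r (0.96), Sirpb1a (0.93), Fabp4 (0.93), Negr1 (0.91) and Ms4a6d (0.91). For Fcgr1 they were Acp2 (0.93), Itgb5 (0.91), Gm4951 (0.91), Gm5150 (0.91) and Ifi204 (0.91). For Fcgr2b they were Ipo13 (0.97), Arhgap30 (0.96), Fnbp4 (0.96), the B cell lectin Siglecg (0.95) and Gorasp2 (0.95). The neutrophil marker Cxcr2 (0.93) led for Fcgr3, and Lpcat2 (0.91), Rufy4 (0.91) and the myeloid lysozyme Lyz2 (0.90) were among the closest. Fcer1g was most like Ifitm2 (0.92), Lgals3 (0.90), Flot1 (0.90), a gene listed without a symbol (0.89) and Gmpr (0.87). Fcgrt was most like the class I genes H2-T9 (0.84) and H2-T23 (0.83), with Tspan3 (0.83), Gpr65 (0.81) and Alg5 (0.81). The 6 receptors thus had 6 different sets of nearest genes.

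F11r, which encodes a junctional adhesion molecule, is also a neighbour of Fcgr4 on chromosome 1 (chr1:171437561-171464593). Its log2(RPKM + 1) was 1.69, 2.02, 2.40, 1.82 and 1.83 in XXF F1 to F5, and 3.17, 2.85, 3.19 and 3.30 in XYF F6 to F9. It was 1.69, 1.66, 1.76, 1.86 and 1.90 in the XXM mice and 2.02, 3.04, 3.02, 1.94 and 2.32 in XYM 12, 13, 15, 16 and 9. F11r was picked for its likeness to Fcgr4, so that XYM 13 and 15 were high for both, and its differences in the direction of Fcgr4, follow from that choice and are no separate evidence. The F11r difference was -1.18 between XXF and XYF mice (limma Benjamini-Hochberg adjusted p 0.0104, 5 of 5 below 4 of 4) and -0.69 between XXM and XYM mice (adjusted p 0.0769, 5 of 5 below 5 of 5).

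A window of 1000000 bases on either side of the chromosome 1 receptors, chosen after these values were seen, held 47 tested genes. Since Fcgr4 and F11r prompted it, counts that hold them cannot be read against a share of all genes. Besides these 2, 1 gene was called between XXF and XYF mice (Sh2d1b1, lower in XXF) and 1 between XXM and XYM mice (Uhmk1, lower in XXM), near the shares of all genes (1.38% and 2.96%). Of the 47, 11 were called between XYM and XYF mice, 6 higher and 5 lower in XYM, where 15.8% of all genes were called. Fcgr2b, Fcgr4, Fcer1g and F11r were among the 11, so this count is not read as a result about the window. Fcgr2b, Fcgr3 and Fcer1g, also in the window, were not called between XX and XY mice of either gonadal sex. For Fcer1g this was not settled in females, where it differed by -0.82 and was called without XYF F8, XYM 12 or XYM 9.

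**Figure D4:**
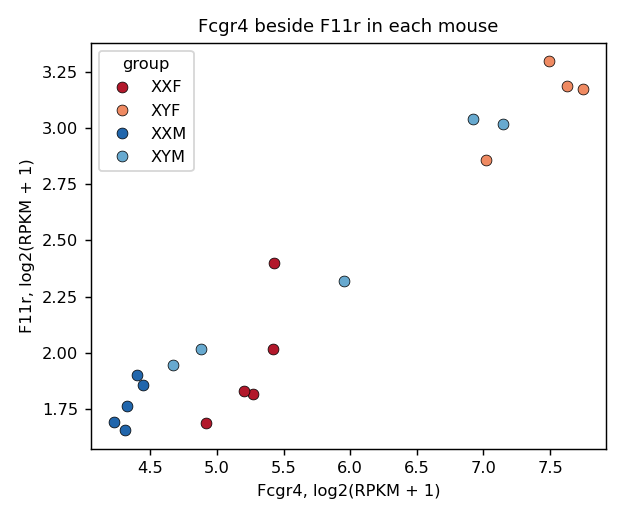
Level of Fcgr4 beside that of F11r in each of the 19 mice, both in log2(RPKM + 1). The XYF mice had Fcgr4 from 7.02 to 7.75 and F11r from 2.85 to 3.30. XYM 13 and 15 had Fcgr4 of 6.92 and 7.15 and F11r of 3.04 and 3.02. The other 3 XYM mice had Fcgr4 of 4.88, 4.67 and 5.95 and F11r of 2.02, 1.94 and 2.32.

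Promoters are shown for Fcgr4, Fcgr1 and Fcgr2b, the receptors called in more than 1 comparison, as RefSeq bases of GRCm38.p6 from 250 before to 50 after the start of the gene. Capitals mark matches on either strand to GAGGAA, a core that the myeloid factor PU.1 can bind (seen here as its reverse complement), and to TTCNNNGAA, a core that STAT factors can bind. The Fcgr4 promoter (chr1:171018676-171018975, plus strand) has 1 match to GAGGAA. The Fcgr1 promoter (chr3:96293920-96294219, minus strand) has 1 match to GAGGAA and 1 site that matches TTCNNNGAA on both strands. The Fcgr2b promoter (chr1:170976022-170976321, minus strand) has no match to either, and in that window this says only that these letters are absent.
Fcgr4: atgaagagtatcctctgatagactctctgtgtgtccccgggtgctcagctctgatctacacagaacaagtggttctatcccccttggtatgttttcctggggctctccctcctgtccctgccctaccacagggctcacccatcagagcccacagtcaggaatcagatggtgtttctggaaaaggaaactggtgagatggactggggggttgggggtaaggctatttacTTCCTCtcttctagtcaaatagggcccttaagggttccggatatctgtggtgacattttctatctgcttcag
Fcgr1: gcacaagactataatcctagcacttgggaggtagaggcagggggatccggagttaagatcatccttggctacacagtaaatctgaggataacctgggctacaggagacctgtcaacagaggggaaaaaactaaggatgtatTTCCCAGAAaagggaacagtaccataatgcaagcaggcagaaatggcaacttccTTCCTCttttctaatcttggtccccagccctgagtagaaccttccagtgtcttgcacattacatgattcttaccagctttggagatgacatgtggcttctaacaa
Fcgr2b: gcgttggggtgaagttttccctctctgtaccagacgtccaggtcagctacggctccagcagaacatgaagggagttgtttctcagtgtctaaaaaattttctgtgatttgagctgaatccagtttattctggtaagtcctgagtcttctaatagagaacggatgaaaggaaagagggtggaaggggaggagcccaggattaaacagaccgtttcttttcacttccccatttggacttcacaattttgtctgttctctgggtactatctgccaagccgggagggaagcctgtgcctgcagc

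Of the other receptors, Fcgr3 has 2 listed promoters whose windows overlap (chr1:171059354-171059653 and chr1:171059345-171059644) and lie inside the gene, at starts downstream of its first base, with 1 match to GAGGAA (chr1:171059404-171059409) that lies in both, and Fcer1g and Fcgrt have no match to either motif. Among 32851 promoters of the same length, 28.3% hold GAGGAA and 8.3% hold TTCNNNGAA on either strand. A match describes letters in these windows and is not evidence of binding, which was not measured.

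Marker genes of spleen cell types also differed between groups, some in the direction of a receptor and some not. Their part in the results was not tested. In none of the marker lists was a gene at 0 in all mice, and Hbb-bt, of the erythroid list, is not in the table. The counts of called markers below stand beside 1.38% of all genes between XXF and XYF mice, 2.96% between XXM and XYM, 4.22% between XXM and XXF, 15.8% between XYM and XYF and 7.32% between males and females. Without XYF F9 and XYM 9 these shares were 0.895%, 6.18%, 4.74%, 22.1% and 9.09%, which apply to the counts given without these libraries. Beside Fcgr4 between XX and XY mice, 6 of 7 NK markers were called between females, all higher in XXF mice, led by Gzma (1.73), Klrb1c (1.46) and Ncr1 (1.46), the opposite direction to Fcgr4. NK markers, with Gzma the most abundant, summed to 424, 467, 452, 569 and 529.5 RPKM in the XXF mice F1 to F5 and to 161, 264, 182 and 93.0 in the XYF mice F6 to F9. They summed to 412, 348, 402, 394 and 359.7 in the XXM mice and 213, 212, 310.1, 175 and 73.2 in XYM 12, 13, 15, 16 and 9. XX mice thus had more NK marker RNA in either gonadal sex, with no overlap, and 3 of 7 markers were called between XXM and XYM mice.

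Neutrophil markers, with S100a9 the most abundant, summed to 4732, 3928, 5419, 5194 and 4520.2 RPKM in the XXF mice and to 6732, 5780.4, 7587, 5083 and 4514 in the XXM mice. All 4 XYF mice (8083 to 56768) lay above these, while among the XYM mice only 13 (9474) and 9 (58616) did. limma called 0 of the 9 neutrophil markers between XXF and XYF mice (6 at an unadjusted p under 0.05, and 0 by limma-voom), with a median log2 difference of -1.87 beside 0.06 over all genes. Without XYF F9 and XYM 9, 3 of 9 were called lower in XXF mice (beside 0.895% of all genes), 5 of 9 lower in XYM than in XYF mice (22.1%) and 2 of 9 lower in males over XX and XY. In the other direction, 1 of 9 was then called higher in XXM than in XYM mice and 3 of 9 higher in XXM than in XXF mice. For the interaction, in which Fcer1g was called without these libraries, 4 of 9 were then called beside 5.51% of all genes, all lower (median -1.39), where limma on all mice called 0 (0 at an unadjusted p under 0.05, and 0 by limma-voom). Other lists also had calls for the interaction without these libraries. T cell markers had 3 of 7 called higher (median 0.73) and NK markers 2 of 7 higher (median 0.58). Of the 20 signalling genes 3 were called higher and 1 lower, and each remaining list had 0 or 1 called. The course of the neutrophil markers thus differed between comparisons. Of the list, Ltf had the largest XX against XY difference over both gonadal sexes (-1.49, not called, adjusted p 0.119). Of the XYM mice high for Fcgr4, XYM 15 had a neutrophil marker sum of 4126 and XYM 13 one of 9474. The part of neutrophils in the Fcgr4 difference was not tested.

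Monocyte markers, with Lyz2 the most abundant, summed to 1507, 968, 1126, 1693 and 1383 RPKM in the XXF mice F1 to F5, and 1232, 1895, 942 and 3822 in XYF F6 to F9. In the XXM mice they summed to 1059, 1308, 1076, 1209 and 1249.6, and in XYM 12, 13, 15, 16 and 9 to 882, 1301, 885, 935 and 3673. The sums overlapped between all groups. Of the 8 genes, 1 was called between XXF and XYF mice (Nr4a1, -0.72), 1 between XXM and XYM mice (Ly6c2, -0.79) and 1 between XYM and XYF mice (Treml4, -0.81), each lower in the group named before the other. The 1 of 8 between XYM and XYF mice is below the 15.8% of all genes, and limma-voom did not call Ly6c2. Without XYF F9 and XYM 9, 1 of 8 was called between XXF and XYF mice, 0 between XXM and XYM mice and 0 between XYM and XYF mice. Over both gonadal sexes 1 of 8 was called, lower in XX mice, beside 1.72% of all genes. Males had 1 of 8 called lower than females, beside 7.32%. Each of these 2 counts was 0 without XYF F9 and XYM 9.

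**Figure D5:**
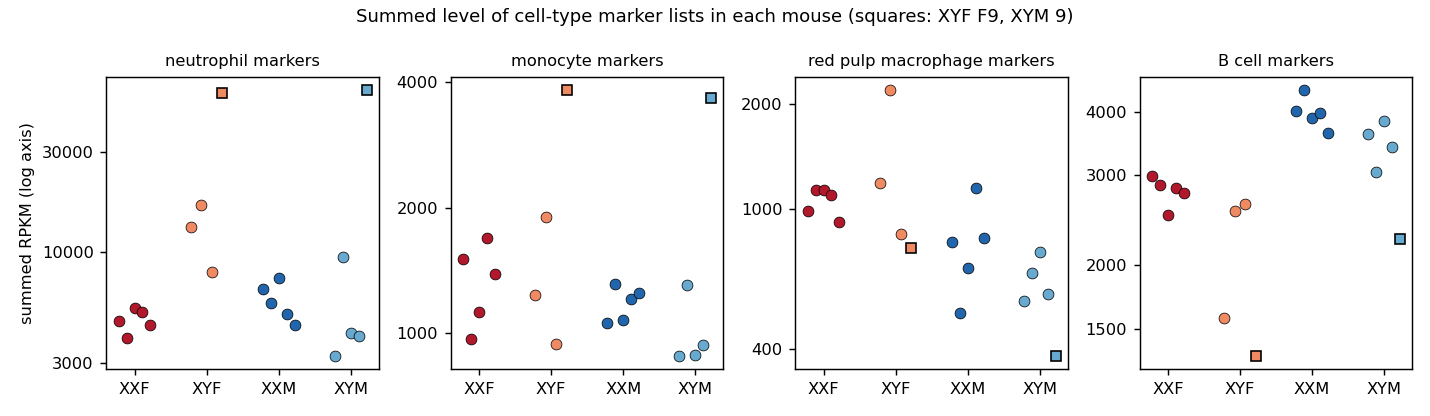
Summed RPKM of 9 neutrophil, 8 monocyte, 10 red pulp macrophage and 8 B cell markers in each mouse, on log axes, with squares for XYF F9 and XYM 9. Neutrophil markers were at 56768 in XYF F9 and 58616 in XYM 9, and B cell markers had medians of 2830.1 in XXF, 2065 in XYF, 3982 in XXM and 3415 in XYM mice.

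Beside Fcgr2b, which was higher in males, 6 of 8 B cell markers were called higher in males than in females, among them Cd22 (0.82), Cr2 (0.70), Pax5 (0.66) and Blk (0.61), and 7 of 8 between XYM and XYF mice. These counts were 4 and 6 without XYF F9 and XYM 9. Between XXM and XXF mice 1 of 8 was called (Pax5) and 6 had an unadjusted p under 0.05, but all 8 were higher in XXM, with a median of 0.49 beside -0.01 over all genes, in the direction of Fcgr2b. Between XXF and XYF mice, where Fcgr2b differed by 0.03, 2 of 8 were called higher in XXF (Cr2, 0.79, and Blk, 0.76), with a median of 0.54 beside 0.06. That count was 1 and the median 0.35 without XYF F9 and XYM 9, while Fcgr2b differed by 0.08. B cell markers, with Cd79b the most abundant, summed to 2992, 2878, 2515, 2830.1 and 2775 RPKM in the XXF mice and 1579.7, 2550.3, 2631 and 1330.4 in the XYF mice. In the XXM mice they summed to 4019.7, 4403, 3890.4, 3982 and 3628, and in XYM 12, 13, 15, 16 and 9 to 3611, 3052, 3830.4, 3415 and 2250.1. Every male but XYM 9 lay above every female, and XYM 9 also had the lowest Fcgr2b of the males.

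Beside Fcgr1, which was lower in males, 5 of 10 red pulp macrophage markers were called lower in males than in females, with C1qb (-1.21), C1qa (-1.05), Cd5l (-0.99), C1qc (-0.94) and Vcam1 (-0.60), the last named after its value was seen. Between XYM and XYF mice 7 of 10 were called lower, and between XXM and XXF mice 1, C1qb (-1.05). Their sum, with Hmox1 the most abundant, was 990.1, 1135, 1139, 1099 and 920.2 RPKM in the XXF mice and 1188, 2181, 850.0 and 776 in the XYF mice. It was 805, 506, 681, 1152 and 831 in the XXM mice and 549, 662, 756, 576 and 384 in XYM 12, 13, 15, 16 and 9. XYF F7, the mouse with the most Fcgr1, also had the highest sum, and every XYM mouse lay below every female. Between XX and XY mice 1 of 10 was called in females (Cd5l, lower in XXF, -1.05) and 1 in males (Hmox1, higher in XXM, 0.77).

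Other cell types also moved between males and females. T cell markers, led by Cd3g in abundance, were lower in males, with 7 of 7 called between XXM and XXF mice (Cd8b1 -2.23, Cd8a -1.91, Cd3d -1.75, Cd3g -1.72) and 6 of 7 between XYM and XYF mice. In the comparison of XXM with XYM mice 3 of 7 were called lower in XXM, in the direction of Fcgr4 (Cd8b1 -0.83, Cd8a -0.77 and Cd4 -0.69, the last named after its value was seen). Their summed level was 895 to 1271 RPKM in XXF, 440.5 to 1171 in XYF, 279.9 to 418 in XXM and 267 to 571 in XYM mice. Dendritic cell markers, led by Itgax in abundance, were higher in males for 5 of 8 genes (Siglech 1.24, Flt3 1.03, Cd209a 0.86, Clec10a 0.69 and Clec9a 0.64), with sums of at most 52.5 RPKM in females and at least 57.3 in males. Erythroid markers, led by Hbb-bs in abundance, were called lower in males for 6 of 6 genes (Hba-a1 -1.88, Hbb-bs -1.81, Klf1 -1.52), with sums from 11427 to 43656 RPKM in females and from 1359.5 to 13189.5 in males, although red cells had been lysed. Among XY mice 6 of 6 were called lower in XYM (median -2.35), whereas among XX mice limma called 0 of 6 between XXM and XXF mice (1 at an unadjusted p under 0.05, and 0 by limma-voom, median -0.90). The interaction had 0 of 6 called, beside 0.0846% of all genes, and 1 of 6, beside 5.51%, without XYF F9 and XYM 9. Erythroid markers also moved between XXM and XYM mice, where Fcgr4 was called. There 1 of 6 was called higher in XXM (median 0.81), and 4 of 6 (median 1.30, beside 6.18%) without XYF F9 and XYM 9.

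Platelet markers, led by Ppbp in abundance, were called lower in XYM than in XYF mice for 4 of 5 genes (Gp9 -1.02, Pf4 -0.82, Ppbp -0.72, Itga2b -0.66), with 1 of 5 called without XYF F9 and XYM 9. Among females 1 of 5 was called, lower in XXF than in XYF mice (median -0.49), and 0 of 5 without XYF F9 and XYM 9. Platelet markers summed to 50.7 to 65.1 RPKM in XXF, 56.9 to 100.3 in XYF, 42.4 to 80.7 in XXM and 25.1 to 62.3 in XYM mice. Of 7 plasma cell markers, led by Jchain in abundance, Tnfrsf17 was called lower in XXF than in XYF mice (-0.92), while between XYM and XYF mice Irf4 was called higher (1.03) and Tnfrsf17 lower (-0.82). The call between XXF and XYF mice was lost without XYF F9 and XYM 9 (0 of 7), and 2 of 7 were then called between XYM and XYF mice, a share near the 22.1% of all genes. Their sums ran from 697 to 1527 RPKM in XXF, 1331 to 1858 in XYF, 985 to 1409 in XXM and 1059 to 1682 in XYM mice. limma called 0 of 6 mast cell and basophil markers between XX and XY mice over both gonadal sexes (1 at an unadjusted p under 0.05, and 0 by limma-voom), where Prss34 had the largest difference (-0.88, adjusted p 0.211). limma also called 0 between XYM and XYF mice (1 at an unadjusted p under 0.05, and 1 by limma-voom), but 3 of 6 lower in XYM without XYF F9 and XYM 9, beside 22.1% of all genes. With Hdc the most abundant, these summed to between 22.7 and 61.3 RPKM in 17 mice, to 233 in XYF F9 and to 164 in XYM 9.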

How the data were processed

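RNA of spleen cells from 19 mice was measured, 1 library per mouse. Subread alignment to mm10 and featureCounts, run by the authors, gave the deposited values, log2(RPKM + 1) with 0.0001 added, for 27179 genes. Whole reads recovered from these values gave library sizes from 11263753 to 19962022. The methods name a stranded KAPA kit and the sample records a NEBNext Ultra kit, and neither says how strand and reads with several matches were handled in counting.

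The deposited log2 values were fitted with limma 3.58.1 in R 4.3.3, as 4 group means with a shared spread trended over expression. Sex chromosomes were compared in mice with ovaries, in mice with testes and over both, gonads in XX mice, in XY mice and over both, and their interaction was the last of 7 comparisons. Exact tests permuted mice within gonadal sex or within sex chromosome complement and were two-sided, and their p are given without adjustment. Correlations used 100000 permutations over all mice, also after centring on group means. Symbols and promoters were matched to RefSeq of GRCm38.p6, where 6 of 6 members had a promoter. Other steps used Python 3.11.15 (matplotlib 3.10.9, numpy 2.4.6, scipy 1.17.1, pandas 2.3.3).

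The members and lists were chosen with earlier results of these data known. Named are the 6 members, the Fc receptor family, up to 4 called genes of each other list with the largest difference (where none was called, the 1 with the largest XX against XY difference), the most abundant marker of each list, up to 5 genes most like each member and genes that overlap a member. Plcg2, Btk, Tyrobp, Lat2, Lcp2, Vav3, Hmox1, Clec9a, Sh2d1b1 and Uhmk1 were named after their values were seen, or as the most abundant of a list. The lists were the Fc receptor family, ITAM signalling, inhibitory phosphatases and adaptors, other receptors that pair with Fcer1g, and markers of B, plasma, T, NK, dendritic, mast and erythroid cells, red pulp macrophages, monocytes, neutrophils and platelets. Alternatives were pseudocounts of 0.5 and 0.1, no filter, a filter at an RPKM of 1, median ratio rescaling, quantile normalization, the 2 compared groups alone, limma-voom on recovered reads, array weights, no trend, calls without a fold threshold or at an adjusted p under 0.05 and each mouse left out. Leaving out both XYF F9 and XYM 9 was added after seeing the data. Reads were not realigned.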

Additional observations from a re-analysis of the deposited data

Results flagged for a closer look

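Single mice lay far from the others of their group in 6 of the 88 groups of values looked at, where chance flags about 1 in 20 groups. XYM 9 was far above the other XYM mice for the log2 ratio of Fcgr3 to Fcgr2b (-0.0496, others -2.03 to -1.54). It was also far above them for summed neutrophil markers (58616 RPKM, others 3236 to 9474), monocyte markers (3673, others 882 to 1301) and mast cell and basophil markers (164, others 22.7 to 47.7). XYF F9 was far above the other XYF mice for mast cell and basophil markers (233 RPKM, others at most 61.3). XXM 6 was far below the other XXM mice for the log2 ratio of Fcgr1 to Fcgr2b (-5.55, others -4.86 to -4.72). No cause of these was tested.

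The XX against XY difference in females less that in males was -1.01 in log2 for Fcer1g (two-sided exact permutation p 0.0211 without adjustment, and not called by limma, Benjamini-Hochberg adjusted p 0.148 over all genes) and -0.90 for the monocyte marker Nr4a1, which limma called (Benjamini-Hochberg adjusted p 0.0877) and limma-voom did not. Nr4a1 was lower in XXF than in XYF mice (-0.72) and differed by 0.19 between XXM and XYM mice.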

How the results depend on the processing

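Differences of members and counts of calls were recomputed under 12 alternatives, with each mouse left out, and without XYF F9 and XYM 9, which was chosen after seeing the data. Fitting 2 groups alone applies only to comparisons of 2 groups. Exact tests and correlations were recomputed under 2 other pseudocounts and median ratio rescaling, and ratios with a pseudocount of 1. The calls of Fcgr1, Fcgr2b and Fcgr4 between males and females, and of Fcgr4 in females, kept their direction and call throughout. Of the differences of members, 1259 kept direction and side of the thresholds, 14 became called, 4 lost a call and 49 changed sign. No called difference changed sign. The cause was not tested for any change, beyond the fewer mice of some alternatives.

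The number of members called ran, with each mouse left out, from 1 to 2 between XXF and XYF mice, from 0 to 1 between XXM and XYM mice and from 0 to 1 for the interaction. It was 0 between XXM and XYM mice with the 2 compared groups alone. For the interaction it was 1 with array weights and 1 without XYF F9 and XYM 9. Counts also rose where Fcgr4 became called between XXM and XXF mice, without XYM 15 or XYM 16, with array weights or with these groups alone. They rose too where Fcgr3 became called between XYM and XYF mice, without XYF F8 or XYM 9.

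Changes of sign concerned log2 differences near 0. Under median ratio rescaling Fcgr2b was -0.036 in XXF vs XYF (exact permutation p 0.849) and -0.064 for the interaction. Under it, over both gonadal sexes, Fcgr2b was -0.0038 (p 0.969), Fcgr3 -0.0093 (p 0.972) and Fcgrt -0.0064 (p 0.960). Under quantile normalization Fcgr2b was -0.073 in XXM vs XYM and -0.021 over both. With array weights Fcgr3 was 0.171 in XXF vs XYF, Fcgrt -0.011 over both and Fcgr1 0.158 for the interaction. By limma-voom Fcgr2b was -0.0075 for the interaction. Without XYF F9 and XYM 9, Fcgr3 was 0.167 in XXF vs XYF, Fcgr2b -0.049 in XXM vs XYM and Fcgrt -0.072 over both.

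With each mouse left out, ranges that crossed 0 were as follows. In XXF vs XYF they were -0.131 to 0.150 for Fcgr2b, -0.435 to 0.167 for Fcgr3 and -0.156 to 0.157 for Fcgrt. In XXM vs XYM they were -0.049 to 0.109 for Fcgr2b and -0.021 to 0.354 for Fcer1g. Over both they were -0.048 to 0.092 for Fcgr2b, -0.122 to 0.178 for Fcgr3 and -0.027 to 0.129 for Fcgrt. For Fcgrt they were -0.108 to 0.0044 in XXM vs XXF and -0.311 to 0.0019 in XYM vs XYF. For the interaction they were -0.297 to 0.151 for Fcgr1, -0.165 to 0.116 for Fcgr2b and -0.258 to 0.056 for Fcgrt.

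Group-centred correlations near 0 changed sign for Fcgr1 with Fcgr2b (0.0036) and with Fcer1g (-0.0014) at a pseudocount of 0.1, and for Fcgr1 with Fcgr4 (-0.016) after median ratio rescaling. With a pseudocount of 1 the mean log2 ratio of Fcgr1 to Fcgr2b moved from -4.96 to -4.56 in XXM and from -4.71 to -4.35 in XYM mice.

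Counts of all genes called moved more. In XXF vs XYF 196 were called, 88 with these groups alone, 103 at an adjusted p under 0.05, 345 without a fold threshold, 127 without XYF F9 and XYM 9, and 56 (without XYF F9) to 850 (without XYF F7) with each mouse left out. In XXM vs XYM 420 were called, 121 with these groups alone, 1027 with array weights, 211 without a filter, 85 at an adjusted p under 0.05, 1115 without a fold threshold, 876 without XYF F9 and XYM 9, and 51 (without XXM 2) to 1213 (without XYM 15) with each mouse left out. Over both 244 were called, 413 at a pseudocount of 0.1, 395 by limma-voom, 983 without a fold threshold, and 148 to 518 with each mouse left out. Without a fold threshold XXM vs XXF had 1348 in place of 598, XYM vs XYF 5661 in place of 2236 (1395 without XYF F6 to 2958 without XYM 9 with each mouse left out) and males vs females 5468 in place of 1039, which was 1700 at a pseudocount of 0.1 and 1714 by limma-voom. The interaction had 12 by limma, 1910 with array weights, 782 without XYF F9 and XYM 9, 6 at a pseudocount of 0.1 or without a filter, 4 by limma-voom, 0 at an adjusted p under 0.05 (2979 at an unadjusted p under 0.05), and 0 to 1694 (without XYM 9) with each mouse left out.

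Read depth limits Fcgr1 most (89 reads in XXM 2). The deposited values were scaled by library size and gene length only. How reads from the stretches that Fcgr2b and Fcgr3 share were counted is not given, and reads were not realigned. Between 2 groups of 4 or 5 mice no exact permutation p can be under 0.00794.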
